A study of Mus musculus with 8 samples.

Results

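The limb mesenchyme transcription factors described here are the genes Osr1, Osr2, Emx2, Tbx4, Tbx15, Pitx1, Prrx1, Twist1 and Twist2, together with Emx2os, the noncoding RNA transcribed from the opposite strand beside Emx2. All 10 were found by symbol among the 26667 genes of the counts table, and all 10 passed the filter on low counts. The filter keeps a gene that is expressed in one group alone. The members were chosen with the KP and KPH2 levels of these tumours known, so their differences between the groups are a description. No p-value is given for them, and calls by the fit over all genes are counted only beside the share of all genes called.

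RNA-seq was carried out on formalin-fixed sections of hind limb undifferentiated pleomorphic sarcomas (UPS), a soft tissue tumour of mesenchymal character, with 1 library from each of 4 KP tumours (KP 5 to KP 8) and 4 KPH2 tumours (KPH2 1 to KPH2 4). Mice of both groups carried the alleles of the KP strain, Trp53 fl/fl among them, on a mixed 129/C57BL/6 background, and KPH2 mice also carried Epas1 fl/fl, which the labels give as Epas1 -/- against wild type. Epas1 encodes HIF-2α, the oxygen-regulated subunit of a hypoxia-inducible transcription factor. Tumours arose after adenoviral Cre was injected into the hind limb muscle of adult male and female mice, and the promoter that drove Cre is not given. Animals were killed at a fixed time after injection or at maximal tumour size, and which of these applied to each library is not given. The study's methods state that 1 knockout tumour was excluded as a technical outlier, whereas its results text gives KP as the smaller group. KPH2 1 is the tumour missing from the smaller table of normalized values. Comparisons were therefore made over 7 tumours, with KPH2 1 shown apart and then included.

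Limb bud mesenchyme is the embryonic tissue that gives rise to the bones, tendons and connective tissue of the limb, while the muscle cells themselves migrate in from the somites. Combinations of homeobox, T-box, zinc finger and basic helix-loop-helix factors give this mesenchyme its position and fate, and several stay active in adult muscle connective tissue. OSR1 and OSR2 are odd-skipped zinc finger factors, EMX2 and PITX1 are homeodomain factors, TBX4 and TBX15 are T-box factors, PRRX1 is a paired-related homeodomain factor of early limb bud, and TWIST1 and TWIST2 are closely related helix-loop-helix factors of mesenchyme.

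The start of Emx2 is shown first because Emx2 and Emx2os had the lowest KPH2 to KP ratios of the members whose KPH2 2 to KPH2 4 levels did not overlap KP, and because the pair share this stretch. Emx2 lies at chr19:59458690-59465357 on the plus strand and Emx2os at chr19:59425104-59458635 on the minus strand (GRCm38), and 54 bases separate their starts. Twist1 and Twist2 are shown beside it because their levels differed in pattern although the proteins are paralogs. The windows run from 250 bases before to 50 bases after an annotated start in RefSeq's annotation of GRCm38.p6, and those printed are on the plus strand. The table used holds such a window for 5 of the 10 members. Capitals mark the bases between the starts in Emx2, and a match to ACGTG or GCGTG on either strand in the others. These 2 pentamers are the core to which hypoxia-inducible factors bind.
Emx2 (chr19:59458440-59458739): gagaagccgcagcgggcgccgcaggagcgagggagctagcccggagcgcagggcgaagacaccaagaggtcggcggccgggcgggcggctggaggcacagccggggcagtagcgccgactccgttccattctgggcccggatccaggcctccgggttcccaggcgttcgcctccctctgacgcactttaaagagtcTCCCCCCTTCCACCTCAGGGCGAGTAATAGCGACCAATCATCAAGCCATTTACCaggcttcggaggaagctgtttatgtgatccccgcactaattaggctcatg
Twist1 (chr12:33957421-33957720): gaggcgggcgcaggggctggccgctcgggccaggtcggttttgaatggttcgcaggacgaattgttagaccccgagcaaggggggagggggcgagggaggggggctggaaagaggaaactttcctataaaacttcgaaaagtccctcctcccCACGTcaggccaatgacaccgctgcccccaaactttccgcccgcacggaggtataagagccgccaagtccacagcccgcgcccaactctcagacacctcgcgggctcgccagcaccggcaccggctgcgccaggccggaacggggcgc
Twist2 (chr1:91801211-91801510): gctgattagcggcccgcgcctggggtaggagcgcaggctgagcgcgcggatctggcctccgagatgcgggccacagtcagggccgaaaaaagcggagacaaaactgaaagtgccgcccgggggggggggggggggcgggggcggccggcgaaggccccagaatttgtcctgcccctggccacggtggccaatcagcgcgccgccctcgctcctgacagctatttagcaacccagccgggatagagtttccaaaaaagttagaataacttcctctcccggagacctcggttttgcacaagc
The Twist1 window held 1 match, to ACGTG on the minus strand, which began 98 bases before the start in plus-strand order, and neither pentamer was found in the Emx2, Twist2 or Prrx1 windows. The Tbx4 window held 2 matches to GCGTG on the minus strand. The Tbx4 window (chr11:85896515-85896814) and the Prrx1 window (chr1:163313601-163313900) lie inside the gene spans given below, away from the outer start of each gene. Of all 32851 promoter windows of this length, 43.8% held at least 1 of the 2 pentamers, so a match or its absence is a description of these letters only. The E-box CANNTG, the class of site that TWIST proteins and their partners bind, was found in 72.3% of all windows and in none of the Emx2, Twist1, Twist2 or Prrx1 windows, while the Tbx4 window held 6.

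Total counts per tumour ran from 6463221 to 13155510. Levels are given as CPM, counts scaled by library size after TMM normalization, which adjusts for differences in composition. Fold changes are log2 ratios of KPH2 to KP from edgeR, with standard errors (SE). As a check of the labels, Epas1 (chr17:86753864-86833410) stood at 78.1 ± 12.4 CPM in KP tumours (SD, n = 4), at 44.8 ± 8.44 in KPH2 2 to KPH2 4 (SD, n = 3) and at 31.97 in KPH2 1. No KPH2 tumour reached the lowest KP tumour (59.6 CPM), although Epas1 did not pass edgeR's quasi-likelihood test (log2 fold change -0.82, SE 0.19, Benjamini-Hochberg adjusted p = 0.0742). The counts cover the whole gene and every cell of the section, including cells that did not recombine. In such bulk samples fewer cells of a type and less RNA per cell cannot be told apart, for Epas1 or for any gene below.

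Osr2, Emx2, Emx2os, Tbx15 and Twist2 were lower in each of KPH2 2, KPH2 3 and KPH2 4 than in every KP tumour, whereas Osr1, Twist1 and Prrx1 overlapped between the groups. Pitx1 and Tbx4 were expressed in only some tumours of either group. The same 5 genes were the members that edgeR called over the 7 tumours, at an adjusted p under 0.05, all of them lower in KPH2. Among all 14867 tested genes, 1.96% were called, 0.72% lower and 1.24% higher. KPH2 2 to KPH2 4 lay entirely below KP for 7.83% of these genes and entirely above KP for 9.01%. DESeq2 called 6 members, adding Pitx1, against 7.2% of its genes called in either direction and 3.43% lower. Because the members were chosen on this contrast, nothing is read from their count. Tbx15 was no longer called without KP 7, nor were Tbx15 and Twist2 without KPH2 2 or without KPH2 4. With all 8 tumours, edgeR called 0 of the members and 1 gene in all (0.00675%), with 2172 genes at an unadjusted p under 0.05. DESeq2 called 1 member, Osr2, over the 8 tumours, against 4.06% of its genes in either direction and 2.38% lower.

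**Figure D1:**
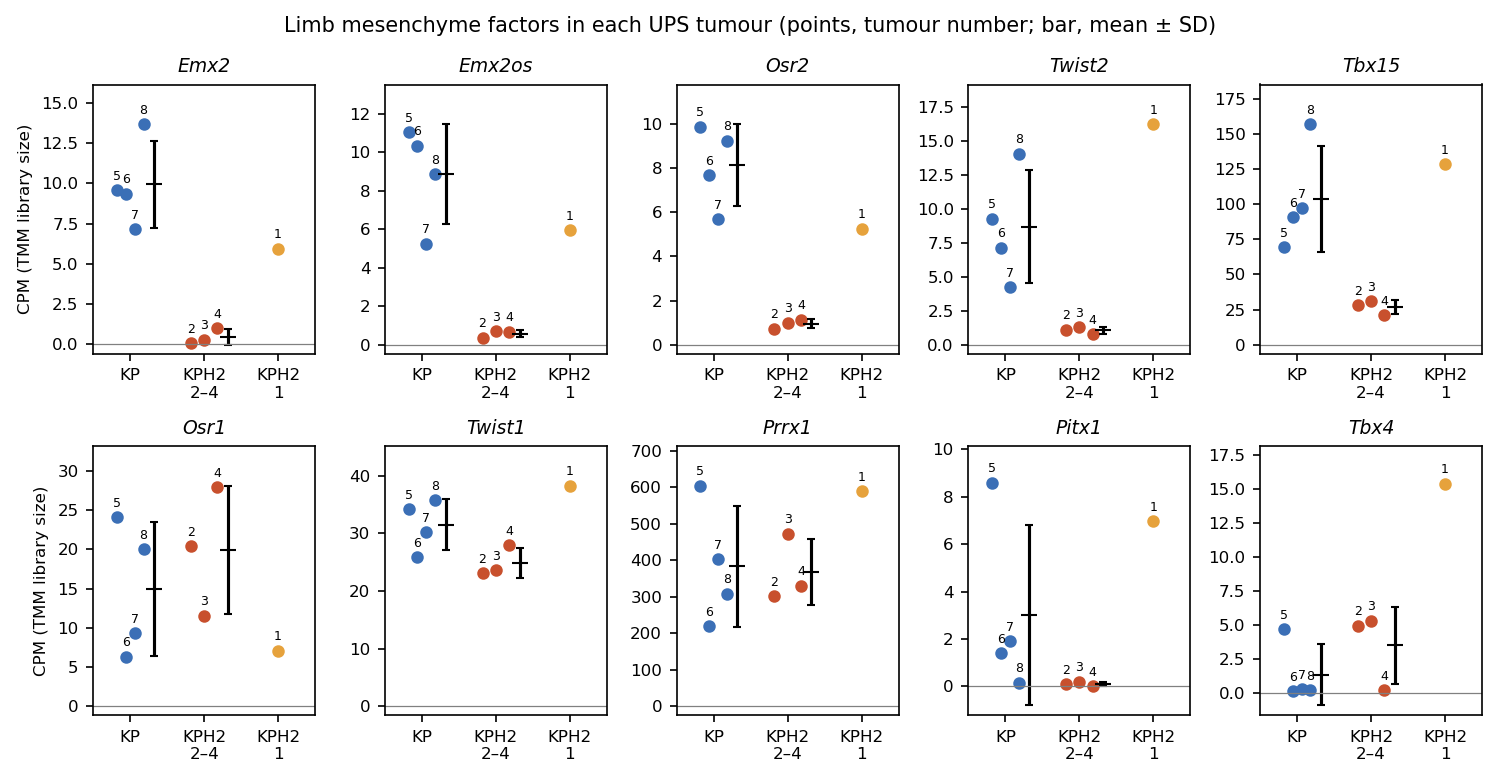
CPM of each of the 10 genes in each tumour (points, with tumour numbers), with the mean and SD of KP (n = 4) and of KPH2 2 to KPH2 4 (n = 3) beside the points and KPH2 1 alone. In the panels of Emx2, Emx2os, Osr2, Twist2 and Tbx15, KPH2 2 to KPH2 4 sit below every KP tumour, and KPH2 1 sits far above them. Each panel has its own scale.

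Emx2 is a homeobox gene needed for the urogenital system and cortex, and in the limb girdle for the scapula. It was measured at 9.57, 9.36, 7.15 and 13.7 CPM in KP 5, 6, 7 and 8, against 0.0914, 0.301 and 1.01 CPM in KPH2 2, 3 and 4. KPH2 1 stood at 5.96 CPM, below the KP tumours but well above the other KPH2 tumours. The means were 9.94 ± 2.72 in KP (SD, n = 4) and 0.468 ± 0.483 in KPH2 2 to KPH2 4 (SD, n = 3), with a log2 fold change of -4.44 (SE 0.62). KPH2 2 to KPH2 4 held 13 counts together, against 423 in KP, and the pooled ratio of KP to KPH2 was 24.0 with a 95% counting interval of 13.9 to 45.4, which covers counting error only. KPH2 4 gave 9 of the 13 counts, and without KPH2 4 the log2 fold change was -5.62 (SE 0.57). Emx2 in KPH2 2 rested on 1 count, under the 3 counts (0.274 CPM) that a count of 0 would allow there. With KPH2 1 included the log2 fold change was -2.38 (SE 0.94).

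Emx2os, the antisense RNA of the pair, showed 11.1, 10.3, 5.25 and 8.86 CPM in KP 5 to KP 8 and 0.366, 0.703 and 0.675 CPM in KPH2 2 to KPH2 4, and KPH2 1 lay inside the KP range at 5.96. The mean was 8.88 ± 2.59 CPM in KP (SD, n = 4) and 0.581 ± 0.187 in KPH2 2 to KPH2 4 (SD, n = 3), a log2 fold change of -3.93 (SE 0.41), which was -2.15 (SE 0.81) over all 8 tumours. Emx2 and Emx2os were therefore both low in the same 3 tumours. The libraries were stranded, but the strand setting used in counting is not given in the sources used here, and GENCODE's gene models of the pair overlap although the RefSeq-linked transcripts do not. Reads of the pair could thus be exchanged, and their separate levels are uncertain. Per length, Emx2 exceeded Emx2os in all 4 KP tumours, by 0.58 to 1.41 on the log2 scale with a pseudocount of 0.5, and by 0.79 in KPH2 1. In KPH2 2, 3 and 4 the log2 ratio was -0.80, -0.32 and 1.33, on few counts.

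Osr2 and Osr1 are paralogs that mark irregular connective tissue and joint-forming mesenchyme of the limb, and Osr1 also marks progenitors that support muscle formation and repair. Osr2 (chr15:35296098-35303305) was measured at 9.86, 7.69, 5.69 and 9.24 CPM in KP 5 to KP 8, at 0.731, 1.004 and 1.12 CPM in KPH2 2 to KPH2 4, and at 5.25 CPM in KPH2 1. Every KPH2 tumour, KPH2 1 included, was below every KP tumour. The means were 8.12 ± 1.86 (SD, n = 4) and 0.953 ± 0.202 (SD, n = 3), a log2 fold change of -3.10 (SE 0.33), or -1.96 (SE 0.61) over 8 tumours. Osr2 and Emx2 were the only members with this separation over all 8 tumours, against 4.4% of all tested genes that were lower without overlap and 3.75% that were higher.

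Osr1 (chr12:9574442-9581500) did not follow Osr2. It was measured at 24.1, 6.29, 9.33 and 20.0 CPM in KP 5 to KP 8, at 20.4, 11.5 and 27.9 CPM in KPH2 2 to KPH2 4, and at 7.05 CPM in KPH2 1. The groups overlapped, with a log2 fold change of 0.40 (SE 0.48). Per length, the log2 ratio of Osr2 to Osr1 ran from -1.07 to 0.51 in KP and was -0.20 in KPH2 1, but was -4.49, -3.24 and -4.34 in KPH2 2, 3 and 4. Osr1 in these 3 tumours lay above KP 6 and KP 7, and Osr2 lay below every KP tumour.

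Twist2 and Twist1 gave a similar contrast between paralogs. TWIST1 is required for outgrowth of the limb bud, and TWIST2 (also called Dermo1) is known from dermis and as a restraint on differentiation of bone and muscle precursors. Twist2 (chr1:91801461-91848034) was measured at 9.27, 7.13, 4.23 and 14.1 CPM in KP 5 to KP 8 and at 1.097, 1.31 and 0.787 CPM in KPH2 2 to KPH2 4. KPH2 1, at 16.2 CPM, was above every KP tumour. The means were 8.67 ± 4.14 (SD, n = 4) and 1.06 ± 0.260 (SD, n = 3), with a log2 fold change of -3.03 (SE 0.46) that shrank to -0.80 (SE 0.94) when KPH2 1 was included.

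Twist1 (chr12:33957671-33959831) was the steadiest of the 10 genes, at 34.2, 25.9, 30.2 and 35.7 CPM in KP 5 to KP 8, 23.03, 23.6 and 27.9 CPM in KPH2 2 to KPH2 4 and 38.2 CPM in KPH2 1. KPH2 4 overlapped the KP range, and the log2 fold change was -0.35 (SE 0.17). Its biological coefficient of variation (BCV), the fitted spread between tumours of a group, was 0.194, at the 16.1 percentile of all tested genes. The log2 ratio of Twist2 to Twist1 per length ran from -2.52 to -1.05 in KP, was -0.94 in KPH2 1, and was -4.04, -3.83 and -4.76 in KPH2 2, 3 and 4.

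**Figure D2:**
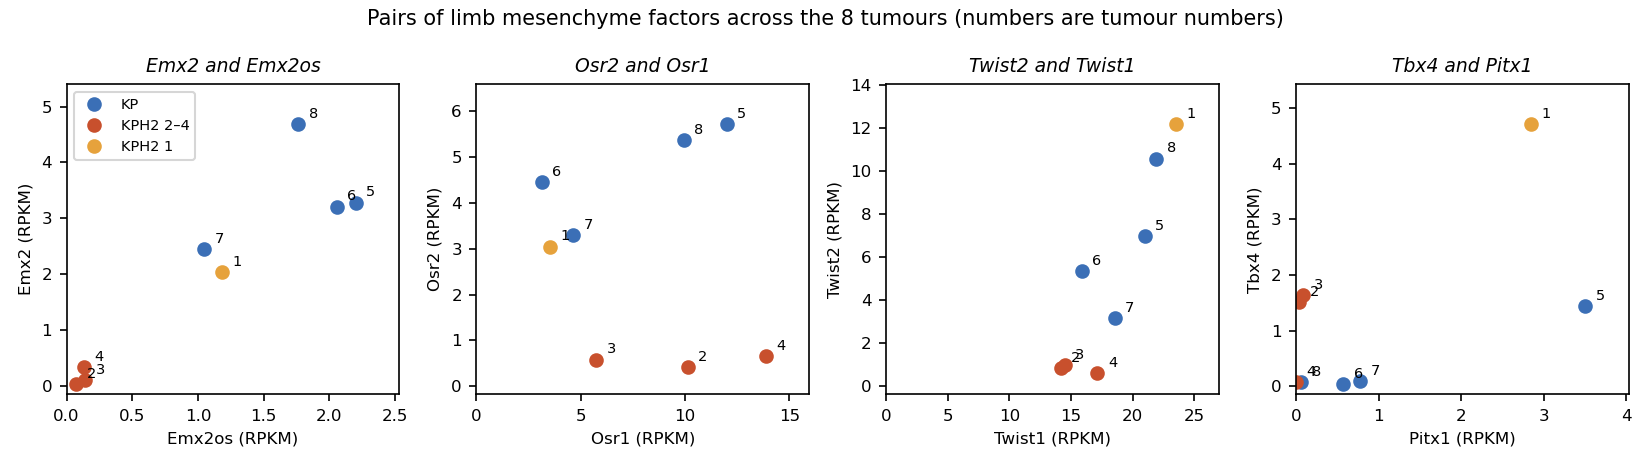
Levels per length (RPKM) of 4 pairs of genes against each other, 1 point per tumour with its number, in blue for KP, red for KPH2 2 to KPH2 4 and yellow for KPH2 1. Emx2 and Emx2os are both near 0 in KPH2 2 to KPH2 4, while Osr2 and Twist2 stay under 1 RPKM in these tumours at 5.74 to 13.9 RPKM of Osr1 and 14.2 to 17.1 RPKM of Twist1, and only KP 5 and KPH2 1 hold both Tbx4 and Pitx1.

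Tbx15, a T-box gene of limb and axial mesenchyme that is also expressed in glycolytic muscle fibres and adipocytes, was the most abundant member with separate groups over the 7 tumours. Tbx15 (chr3:99240348-99354260) was measured at 69.4, 90.8, 97.3 and 156.8 CPM in KP 5 to KP 8, 28.2, 31.1 and 20.9 CPM in KPH2 2 to KPH2 4, and 128.4 CPM in KPH2 1. KPH2 1 lay inside the KP range, and the other KPH2 tumours lay below it. The means were 103.6 ± 37.4 (SD, n = 4) and 26.8 ± 5.26 (SD, n = 3), and the log2 fold change was -1.96 (SE 0.29), or -0.97 (SE 0.58) over 8 tumours.

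Prrx1, which is expressed throughout early limb bud mesenchyme and in adult fibroblasts, had the highest level of the group and overlapped between KP and KPH2. Prrx1 (chr1:163245119-163315145) was measured at 603.7, 218.5, 402.5 and 308.2 CPM in KP 5 to KP 8, 301.5, 472.0 and 329.5 CPM in KPH2 2 to KPH2 4, and 589.2 CPM in KPH2 1. The means were 383.2 ± 165.1 (SD, n = 4) and 367.7 ± 91.4 (SD, n = 3), with a log2 fold change of -0.07 (SE 0.33).

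Pitx1 and Tbx4 are the factors that set hind limb identity, PITX1 acting upstream of Tbx4. Pitx1 (chr13:55825044-55836190) was measured at 8.59, 1.40, 1.90 and 0.153 CPM in KP 5 to KP 8, at 0.0914, 0.201 and 0 CPM in KPH2 2 to KPH2 4, and at 6.97 CPM in KPH2 1. KPH2 2 to KPH2 4 together held 3 counts against 140 in KP, of which KP 5 gave 115. The pooled ratio of KP to KPH2 was 34.3, with a 95% counting interval of 11.5 to 168.5, but KP 8 (2 counts) overlapped KPH2 3 (2 counts).

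Tbx4 (chr11:85886367-85916097) was measured at 4.71, 0.140, 0.292 and 0.229 CPM in KP 5 to KP 8, at 4.94, 5.32 and 0.225 CPM in KPH2 2 to KPH2 4, and at 15.4 CPM in KPH2 1. KP 5 and KPH2 1 were high in both Pitx1 and Tbx4, KPH2 2 and KPH2 3 held Tbx4 with almost no Pitx1, and KP 6 and KP 7 held Pitx1 with almost no Tbx4. The BCV of Tbx4 was 1.12 and that of Pitx1 0.953, at the 99.7 and 99.3 percentiles of all tested genes, whose median was 0.258. The log2 fold changes were -4.79 (SE 1.47) for Pitx1 and 1.27 (SE 1.22) for Tbx4, and became -0.69 (SE 1.44) and 2.19 (SE 1.22) with KPH2 1. Tbx5, the forelimb counterpart of Tbx4, had 1 count in KP 5 and 0 counts in the other 7 tumours, and was chosen for mention after its values were seen.

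**Figure D3:**
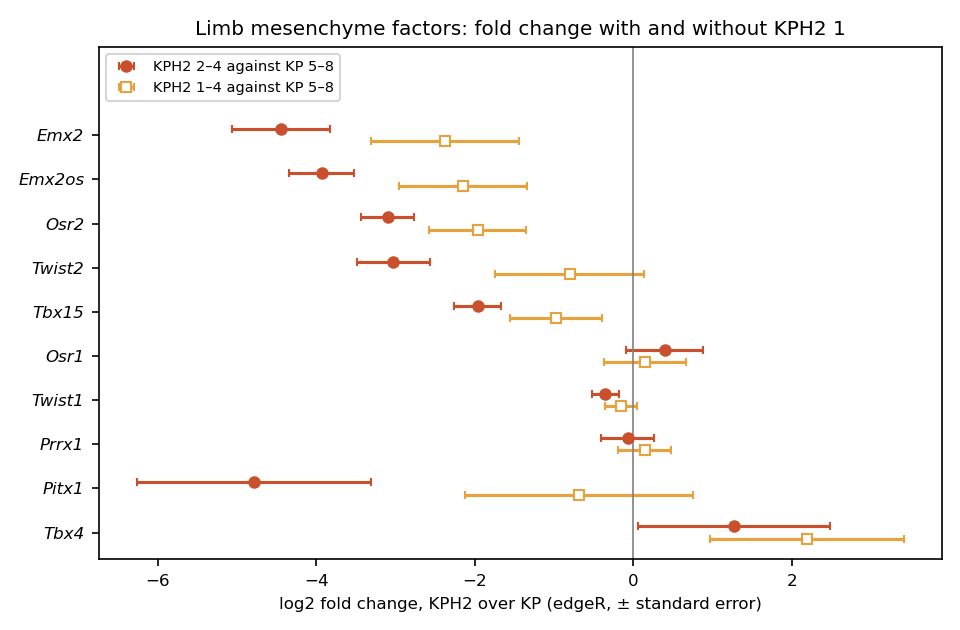
Log2 fold change of KPH2 over KP for each of the 10 genes, with its standard error, from the 7 tumours without KPH2 1 (filled circles) and from all 8 (open squares). Including KPH2 1 moves Emx2 from -4.44 to -2.38, Twist2 from -3.03 to -0.80 and Pitx1 from -4.79 to -0.69, while Osr1, Twist1 and Prrx1 stay within 1 unit of 0 in both.

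KPH2 1 was nearer the KP mean than the mean of the other KPH2 tumours, on the log2 CPM scale, for 8 of the 10 genes, all but Tbx4 and Prrx1. The share of all tested genes for which this holds was not computed, so nothing is read from this count. It stood below all KP tumours for Osr2 and Emx2, above all of them for Tbx4, Twist1 and Twist2, and inside their range for the other 5. Epas1 itself was at its lowest in KPH2 1. Counting this tumour moved the fold changes of all 5 lower genes by over 1.5 times.

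Per length, the order of mean levels in KP was Prrx1 (38.9 RPKM), Tbx15 (29.0), Twist1 (19.3), Osr1 (7.43), Twist2 (6.52), Osr2 (4.71), Emx2 (3.41), Emx2os (1.77), Pitx1 (1.23) and Tbx4 (0.412). Of the 9 pairs of neighbours in this order, 7 overlapped over the 4 tumours, and the ranges were separate between Twist1 and Osr1 and between Emx2 and Emx2os only. In KPH2 2 to KPH2 4 the order was Prrx1 (37.3 RPKM), Twist1 (15.3), Osr1 (9.91), Tbx15 (7.50), Tbx4 (1.07), Twist2 (0.800), Osr2 (0.553), Emx2 (0.161), Emx2os (0.116) and Pitx1 (0.0397). There, neighbours were separate between Prrx1 and Twist1, Twist1 and Osr1, Tbx15 and Tbx4, and Osr2 and Emx2.

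Likeness between the members over the 8 tumours was measured as the root mean square difference of log2 CPM profiles after each was centred on its own mean, which the shared libraries and the choice of members both enter. The closest of the 45 pairs were Osr2 and Emx2os (0.379), Prrx1 and Twist1 (0.418) and Emx2 and Emx2os (0.557), and the farthest were Emx2 and Tbx4 (3.39). Osr1 and Osr2 differed by 1.75 and Twist1 and Twist2 by 1.32, so that each paralog was nearer to other members than to its partner.

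Among the other tested genes, the profiles most like each separated member were as follows. For Osr2 they were Emx2os (0.379), Lrrn4cl (0.429) and 1500009L16Rik (0.444), and for Emx2os they were Osr2, 1500009L16Rik (0.554) and Nlgn1 (0.555). Nlgn1, which encodes a synaptic adhesion protein, and Nova1, which encodes a splicing factor of neurons, were also nearest to Emx2 after Emx2os, at 0.700 and 0.561. Those nearest Tbx15 were 1110012J17Rik (0.373), Dnmt3l (0.407), a cofactor of DNA methyltransferases, and Bcat1 (0.427), a branched-chain amino acid transaminase. For Twist2 they were Bend7 (0.563), Fgf7 (0.574), a fibroblast growth factor made by mesenchyme, and Osr2 (0.624). As an example of such a profile, Fgf7 was measured at 41.9, 71.1, 26.0 and 42.6 CPM in KP 5 to KP 8, 7.31, 3.91 and 6.07 CPM in KPH2 2 to KPH2 4, and 61.4 CPM in KPH2 1.

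Of the other limb and connective tissue genes, 4 passed the test. The 4 lists of limb patterning factors, connective tissue and skeletal progenitor factors, TWIST partners and mesenchymal transition factors, and limb signalling genes held 118 genes, of which 82 were tested over the 7 tumours. In the quasi-likelihood test of edgeR, with p-values adjusted by Benjamini-Hochberg across the whole table, 2 rose, 2 fell and 78 did not pass, so that 4.88% were called against 1.96% of all tested genes. DESeq2 called 16 genes of the lists, against 7.2% of all its genes. Of the 82, 28 (34.1%) had an unadjusted p under 0.05, against 2640 (17.8%) of all tested genes. The median log2 fold change of the 82 was -0.13, and that of all tested genes -0.02. The lists were chosen with earlier results of these data known, so these shares and the calls below are a description only. The 4 calls include Alx4, which passed the low-count filter only through KPH2 2 to KPH2 4.

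Of 19 limb patterning factors tested, 1 rose and 1 fell, with a median of -0.09, while 5 had an unadjusted p under 0.05 and DESeq2 called 4. Shox2, a homeobox gene of the proximal limb, fell (10.4, 5.17, 19.5 and 4.66 CPM in KP 5 to KP 8, 0.914, 1.51 and 1.24 CPM in KPH2 2 to KPH2 4, log2 fold change -3.03, SE 0.60, adjusted p = 0.0469 by edgeR), and stood at 14.7 CPM in KPH2 1. Alx4, an aristaless-like homeobox gene of the anterior limb bud, was the gene that rose, on very few counts. It had 3, 3, 4 and 4 counts in KP 5 to KP 8, 16, 29 and 23 counts in KPH2 2 to KPH2 4 and 1 count in KPH2 1. Alx4 passed the low-count filter only through KPH2 2 to KPH2 4. Its call (adjusted p = 0.0354 by edgeR) and its fitted log2 fold change of 2.63 (SE 0.47) are therefore both uncertain, and nothing is read from them. The most abundant of the list per length, Gli3, which encodes a mediator of hedgehog signalling, stood at 134.9 CPM in KP and at 144.4 CPM in KPH2 2 to KPH2 4, and did not pass the test (adjusted p = 0.876 by edgeR).

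Of 27 connective tissue and skeletal progenitor factors tested, none passed edgeR's test, although 13 (48.1%, against 17.8% of all tested genes) had an unadjusted p under 0.05. Over all 8 tumours this fell to 5 of 27 (18.5%, against 14.7% of all tested genes). DESeq2 called 6 genes of the list, against 7.2% of all its genes. The most abundant per length, Runx1 and Etv4, stood at 204.8 ± 36.6 and 40.2 ± 12.4 CPM in KP (SD, n = 4) and at 301.5 ± 24.5 and 77.0 ± 31.4 CPM in KPH2 2 to KPH2 4 (SD, n = 3), with adjusted p = 0.163 and 0.188 by edgeR. Of 11 TWIST partners and mesenchymal transition factors tested, none passed edgeR's test, 2 had an unadjusted p under 0.05, and DESeq2 called 1. Their median was -0.27. Tcf4 and Tcf12, which encode E proteins that pair with TWIST1 and TWIST2, were abundant at 677.9 and 417.3 CPM in KP and 543.8 and 303.2 CPM in KPH2 2 to KPH2 4 (adjusted p = 0.489 and 0.525 by edgeR).

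Of 25 limb signalling genes tested, 1 rose and 1 fell, with a median of -0.31, while 8 had an unadjusted p under 0.05 and DESeq2 called 5. Crabp1, which encodes a cellular retinoic acid-binding protein, fell from 820.4, 292.6, 528.9 and 424.5 CPM in KP 5 to KP 8 to 137.7, 86.7 and 66.1 CPM in KPH2 2 to KPH2 4, with a log2 fold change of -2.43 (SE 0.40, adjusted p = 0.0306 by edgeR), and stood at 620.2 CPM in KPH2 1. Rara, which encodes a retinoic acid receptor, rose from 25.8 ± 4.00 (SD, n = 4) to 50.5 ± 9.92 CPM (SD, n = 3), with a log2 fold change of 0.96 (SE 0.19, adjusted p = 0.0490 by edgeR), and stood at 23.3 CPM in KPH2 1. The abundant receptor gene Fgfr1 did not pass (491.6 and 451.6 CPM, adjusted p = 0.898 by edgeR). By edgeR the 4 calls are close to the threshold. DESeq2 called the same 4 among its 16 over the 7 tumours, with adjusted p from 2.71e-08 (Crabp1) to 0.00282 (Alx4). Without KP 5 the edgeR calls in the lists were Crabp1 and Zfhx3, of which Zfhx3 was not among the 4. Without KP 6 only Crabp1 was called, without KP 8 only Shox2, and without KP 7, KPH2 2, KPH2 3 or KPH2 4 there were 0. Over all 8 tumours Alx4 was removed by the low-count filter and was not tested, and Shox2, Crabp1 and Rara were no longer called (adjusted p = 0.635, 0.478 and 0.262 by edgeR). Their log2 fold changes there were -1.08 (SE 0.93), -1.17 (SE 0.71) and 0.75 (SE 0.27). Of the 82 genes of the lists tested there, edgeR called 0, with 14 (17.1%, against 14.7% of all tested genes) at an unadjusted p under 0.05. DESeq2 called 7 genes of the lists, against 4.06% of all its genes, and none of the 7 was Shox2, Alx4, Crabp1 or Rara.

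**Figure D4:**
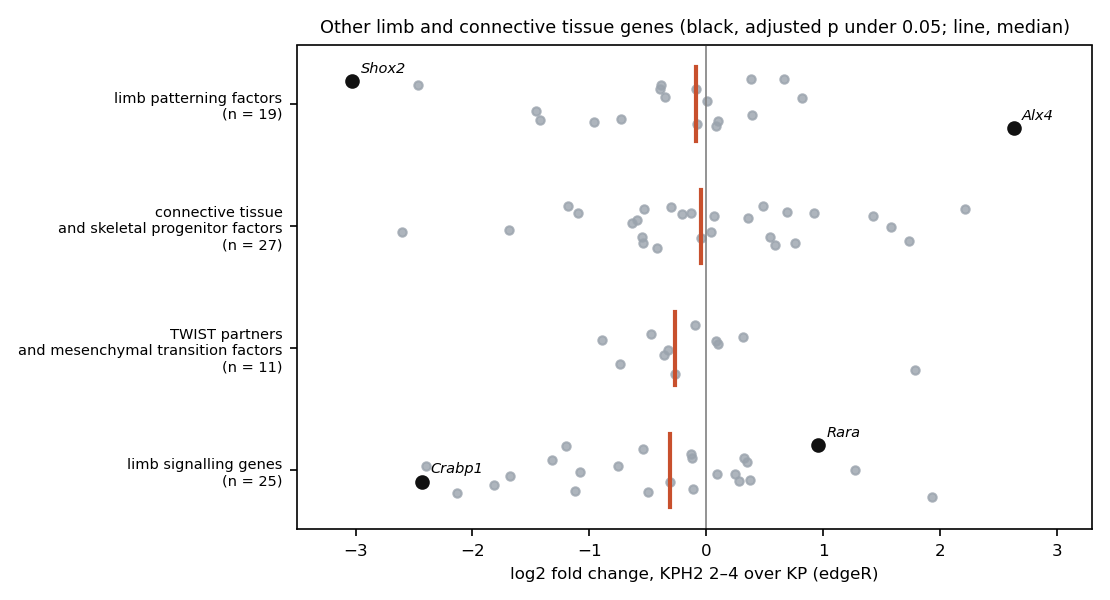
Log2 fold change of KPH2 2 to KPH2 4 over KP for the tested genes of 4 lists, 1 point per gene, in black where the adjusted p was under 0.05 by edgeR, with a red line at the list's median. The medians lie between -0.31 and -0.04, and Shox2, Crabp1, Alx4 and Rara are the 4 genes that passed.

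Markers of other cell types moved with the groups. The 25 skeletal muscle fibre markers summed to 1989 to 3676 CPM in KP, 4498 to 20100 CPM in KPH2 2 to KPH2 4 and 1602 CPM in KPH2 1, and all 25 had a positive fold change, of which 2 (Eno3 and Neb) passed edgeR's test. The 9 satellite cell and myoblast markers summed to 38.5 to 115.3, 202.8 to 431 and 33.1 CPM. Of the 7 tested, all 7 were positive and 2 (Myf5 and Myf6) passed, and Myf5 was at 0 counts in KP 7 and KPH2 1. The muscle fibre score, the mean log2 CPM of the 25 markers, was 4.11 to 5.412 in KP and 5.426 to 7.748 in KPH2 2 to KPH2 4. The groups did not overlap, so a fit over these tumours cannot tell score and genotype apart. With the score as a covariate, edgeR called 3 genes in all and 0 of the members. The log2 fold changes in that fit were -3.27 (SE 0.53) for Osr2, -3.91 (SE 0.84) for Emx2, -4.12 (SE 0.65) for Emx2os, -2.40 (SE 0.48) for Tbx15 and -4.04 (SE 0.62) for Twist2. Pitx1 was at -7.76 (SE 2.26), and Tbx4 turned from 1.27 to -3.43 (SE 1.54).

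The 13 fibroblast and mesenchyme markers summed to 18300 to 28030 CPM in KP, 11280 to 20830 CPM in KPH2 2 to KPH2 4 and 12840 CPM in KPH2 1. Of the 13, 10 had a negative fold change and 1 passed, Pdgfra, the receptor that marks muscle-resident fibroblasts (1503, 911.2, 708.7 and 859.4 CPM in KP 5 to KP 8 against 227.2, 274.4 and 238.4 CPM in KPH2 2 to KPH2 4 and 626.6 CPM in KPH2 1, log2 fold change -2.02, SE 0.27, adjusted p = 0.0183 by edgeR). The sum of KPH2 3 (20830 CPM) lay inside the KP range, but by the mean log2 CPM of the 13 markers KPH2 3 (8.98) and the other KPH2 tumours (8.20 to 8.43) all lay below KP (9.27 to 9.33). Epithelial markers summed to 3.79 to 7.17 CPM in KP, 50.5 to 522.6 CPM in KPH2 2 to KPH2 4 and 58.1 CPM in KPH2 1, and Krt8 and Krt18 passed edgeR's test (adjusted p = 0.0299 and 0.0183), with Krt5 and Krt14 at 0 counts in every tumour. The part of these cell types in the results was not tested.

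**Figure D5:**
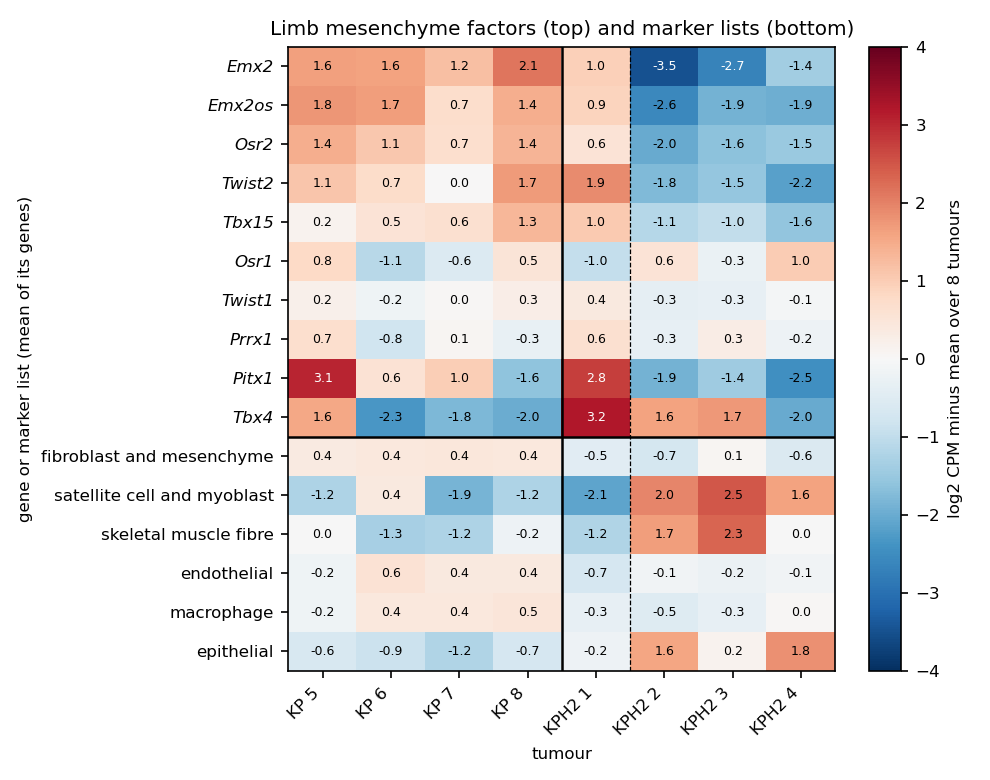
Log2 CPM of the 10 genes (top) and mean log2 CPM of 6 marker lists (bottom) in each tumour, minus the mean over the 8 tumours. Columns KPH2 2 to KPH2 4 are blue for Emx2, Emx2os, Osr2, Twist2 and Tbx15 and red for satellite cell and myoblast markers, and column KPH2 1 resembles the KP columns in these rows.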

How the data were processed

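Libraries were made from formalin-fixed tumour sections, 1 per tumour, with ribosomal RNA depletion and a stranded kit, and read as single ends. The authors used STAR 2.4 for alignment to GRCm38 and htseq-count 0.6.1 for counting uniquely aligned reads in RefSeq genes, and the deposited counts are raw. A second pair of deposited tables holds log2 values (the regularized log of DESeq2 1.6), in which libraries are size-factor scaled and low genes are shrunk, and these were used only as an alternative. The strand setting of the counting is not given in the sources used here.

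Counts were compared in R 4.3.3 with edgeR 4.0.16: TMM normalization, the low-count filter (minimum count 10, minimum total 15), robust quasi-likelihood fits without covariates, and Benjamini-Hochberg adjustment over all tested genes at 0.05. The groups were KP 5 to KP 8 against KPH2 2 to KPH2 4, and then all 8 tumours. The SE of a log2 fold change is its size divided by the root of the quasi-likelihood F. Log2 CPM used a prior count of 2. RPKM used the union of exons of GENCODE M21 transcripts linked to RefSeq, which gave a length to 22890 of 26667 genes (85.8%). Tumours were taken as separate animals, which the labels do not state in full, so the spread is that between these samples. None of the 12 pairs of libraries within a group agreed within sampling noise (closest, KP 6 and KP 8, chi-square 28.3 per degree of freedom).

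The members and gene lists were chosen with earlier results of these data known. Named genes are the members, Epas1, the calls of each list and its 2 most abundant genes per length, and the 3 nearest profiles of each separated member. Other genes are named where a marker list needs them. A further gene set by this rule, and 1 allele that both groups carried, are not reported here. The fit was tested on simulated data of 14867 genes for KPH2 2 to KPH2 4 against KP, where 146 of 200 genes changed by 2 on the log2 scale were called, with 8 unchanged genes, and 0 were called with no gene changed. Alternatives were all 8 tumours, size factors or upper-quartile scaling, no filter or a mean count of at least 50, DESeq2 1.42.0, fits without robust estimates, a muscle score as covariate, the deposited log2 values, the longest transcript for RPKM, and leaving out each tumour.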

Additional observations from a re-analysis of the deposited data

Results flagged for a closer look

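In groups of 4 tumours, a tumour was singled out where its gap to the nearest other tumour, divided by the range of the group, exceeded Dixon's 95% critical value of 0.829. Of the 44 groups examined 11 met this, where chance gives about 1 in 20 groups of genes not chosen on their values. Here the members were chosen on the group contrast, Shox2 and Crabp1 for their call without KPH2 1, and all groups share libraries, so that rate is no yardstick for this count. KPH2 1 was apart from KPH2 2 to KPH2 4 in 8 of them, each time at the high end: Osr2 (gap ratio 0.913, 5.25 CPM), Emx2 (0.843, 5.96 CPM), Emx2os (0.940, 5.96 CPM), Tbx15 (0.905, 128.4 CPM), Pitx1 (0.971, 6.97 CPM), Twist2 (0.966, 16.2 CPM), Shox2 (0.957, 14.7 CPM) and Crabp1 (0.871, 620.2 CPM). KP 5 was apart from the other KP tumours in the remaining 3: Tbx4 (0.967, 4.71 CPM) and Gli3 (0.925, 185.7 CPM) were high, and Epas1 (0.873, 59.6 CPM) was low.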

How the results depend on the processing

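No paired analysis was possible because KP tumours are numbered 5 to 8 and KPH2 tumours 1 to 4, so the groups share no replicate number. Against 292 genes called in all, 5 members and 4 genes of the lists, all 8 tumours gave 1, 0 and 0, DESeq2 gave 1175, 6 and 16, and the muscle score as covariate gave 3, 0 and 0, with log2 fold changes of -2.40 to -4.12 for the 5 lower members (-1.96 to -4.44 without it) and of -2.65, -3.17, 2.95 and 0.58 for Shox2, Crabp1, Alx4 and Rara. A mean count of at least 50 left 1 call in the lists. Leaving out 1 tumour at a time gave 55 to 349 genes in all, 3 to 5 members and 0 to 2 genes of the lists. Over all 8 tumours, 2 genes were called with size factors in place of TMM and 648 by DESeq2. Size factors and upper-quartile scaling called 5 members each, against 1.92% and 1.97% of all genes. Directions turned for Tbx4 (-3.43) and Gli3 (-0.18) with the muscle score, and the cause was not tested. This score did not overlap between KP and KPH2 2 to KPH2 4, so it cannot be told apart from genotype in that fit. On leaving out 1 tumour, Gli3 ran from -0.033 without KPH2 3 to 0.28 without KP 5, and Fgfr1 from -0.35 without KP 6 to 0.27 without KP 5, with no adjusted p under 0.05 by edgeR. The Prrx1 fold change ran from -0.29 to 0.24 on leaving out 1 tumour. Adjusted p-values by edgeR on leaving out 1 tumour ran from 0.0529 to 0.102 for Alx4, 0.0317 to 0.0900 for Crabp1, 0.0515 to 0.137 for Rara and 0.0495 to 0.162 for Shox2. In the deposited log2 values the differences of the 5 lower members were -1.20 to -1.66. The order of levels in KP had 7 of 9 neighbours overlapping with either transcript length. Emx2, Emx2os and Pitx1 rest on few counts in KPH2 2 to KPH2 4, where 3 counts correspond to 0.274 to 0.338 CPM.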
